A study of Mus musculus with 12 samples.

Results

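Tc17 cells lacking STAT3 were set against normal Tc1 cells, to measure how near the cells came to the Tc1 state, which genes fell short of it and which went past it. The comparison used 6 of the 12 arrays of the series: the 3 labelled Tc17 KO and the 3 labelled Tc1 WT. Both groups hold 2 biological arrays and 1 technical array numbered 2. The mean of the technical array and of biological array 2 served as sample 2, so that each group had 2 samples.

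All cells were mouse CD8 T cells, sorted as naive cells from spleen and activated with antibodies to CD3 (1 µg/ml) and CD28 (3 µg/ml). The Tc17 STAT3-/- cells came from mice in which Cre recombinase driven by the Cd4 promoter removes a floxed Stat3 gene, an enzyme that acts in T cells from their development in the thymus. They received IL-6 and TGF-beta for 3 days and IL-2 for 1 more day. The Tc1 cells were wild type (WT) and received IL-12 for 3 days, then IL-2. In every culture WT and STAT3-/- cells had been mixed in equal parts before activation and were sorted apart by allelic markers afterwards. The STAT3-/- Tc17 cells thus shared their wells with WT Tc17 cells, the Tc1 WT cells with STAT3-/- Tc1 cells, and the compared groups differ in both genotype and cytokines, whose parts cannot be told apart within the comparison. Values from Tc17 WT and Tc1 STAT3-/- cells are given where they place a difference.

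IL-6 signals through its receptor to STAT3, which switches on the type 17 genes. TGF-beta signals through SMAD proteins and does not need STAT3, and it induces genes such as Itgae, which encodes the CD103 integrin chain. IL-12 signals through STAT4 and drives T-bet, interferon-gamma and the cytotoxic program of Tc1 cells.

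Values are log2 probe set signals as the authors deposited them, and 9862 genes with a mean of at least 5 in at least 1 of the 4 groups were tested, 294 of which passed only through Tc17 WT or Tc1 STAT3-/- cells. No arrays were identical. Over the tested genes, the SD of the differences between biological arrays 1 and 2 was 0.14 in Tc1 WT and 0.15 in Tc17 STAT3-/- cells, and between biological array 2 and the technical array it was 0.25 and 0.21. The technical array of Tc17 WT stood apart from all others, with a median correlation of 0.933 with the other arrays. Stat3 read 10.13, 10.11 and 9.77 on the Tc1 WT arrays (biological 1, biological 2 and technical, the order used throughout) and 7.80, 7.93 and 7.59 on the Tc17 STAT3-/- arrays. It was lower by 2.26 ± 0.18 (SE, n = 2 samples per group, adjusted p = 0.000227), as the labels require, although the annotation does not say whether the probes lie in the deleted exons. Each SE comes from the fit of all 4 groups and reflects their common spread, not that of the compared groups alone. CD8 T cell markers were high in both groups and none of the 9 tested was called (0 at an unadjusted p under 0.05): their summed level was 13.75 to 13.80 in Tc1 WT and 13.86 to 13.98 in Tc17 STAT3-/- samples. In RNA from a whole cell population, fewer cells of a type and less RNA per cell cannot be told apart.

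Tc17 STAT3-/- cells lay much nearer to Tc1 WT than Tc17 WT cells did. The root mean square log2 difference over all tested genes was 0.24 between Tc17 STAT3-/- and Tc1 WT, against 0.43 between Tc17 WT and Tc1 WT and 0.42 between the Tc17 genotypes. Between the samples of 1 group it was 0.17 in Tc1 WT and 0.14 in Tc17 STAT3-/- cells, below that distance, 0.20 in Tc1 STAT3-/- and 0.26 in Tc17 WT cells, the last above it. Between Tc1 STAT3-/- and Tc17 STAT3-/- it was 0.23, and between the Tc1 genotypes 0.15. The median difference from Tc1 WT was 0.00 for Tc17 STAT3-/- cells, and -0.10 for Tc17 WT cells. Tc17 WT sample 2, which holds the technical array that stood apart, differed from Tc17 WT sample 1 by a median of -0.10 as well. The part of that array in the lower values of Tc17 WT was not tested.

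At an adjusted p under 0.05 (limma, Benjamini-Hochberg over all tested genes), 223 genes (2.26%) differed between Tc17 STAT3-/- and Tc1 WT cells, 129 higher (1.31%) and 94 lower (0.953%). Of these, 38 were at least 2-fold higher (0.385%) and 34 at least 2-fold lower (0.345%). An unadjusted p under 0.05 was reached by 1026 genes (10.4%). The same fit called 2468 genes (25%) between Tc17 WT and Tc1 WT, 691 higher (7.01%) and 1777 lower (18%), and 2473 (25.1%) between the Tc17 genotypes. For 9654 of the 9862 genes (97.9%) the 95% interval of the difference between Tc17 STAT3-/- and Tc1 WT lay inside 2-fold. The count of called genes was 131 and 123 without Tc1 WT sample 1 or 2, and 114 and 89 without Tc17 STAT3-/- sample 1 or 2, and it was 373, 182 higher and 191 lower, with all technical arrays left out.

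**Figure D1:**
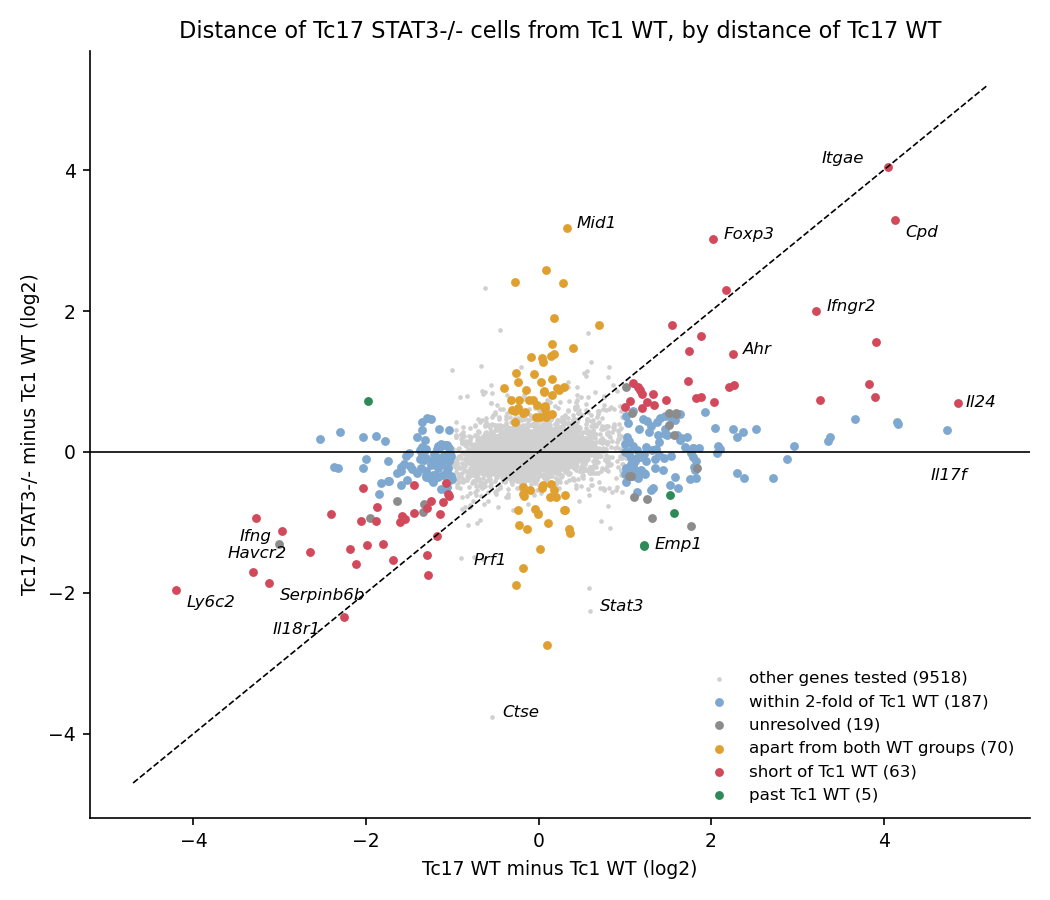
Each point is 1 of 9862 tested genes, with the log2 difference of Tc17 WT from Tc1 WT on the x axis and of Tc17 STAT3-/- from Tc1 WT on the y axis, coloured by class. Both axes share the Tc1 WT samples. Genes on the horizontal line match Tc1 WT (Il17f at 0.31 on the y axis), genes on the dashed diagonal match Tc17 WT (Itgae at 4.05 on both axes), and the genes apart from both WT groups lie above and below the centre (Mid1 at 3.17).

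The genes that separate the normal fates give a scale for the distance. There were 274 genes called at 2-fold or more between Tc17 WT and Tc1 WT, 148 higher (1.5%) and 126 lower (1.28%) in Tc17 WT. In Tc17 STAT3-/- cells 187 of them (1.90% of all tested genes) lay within 2-fold of Tc1 WT, by the 95% interval of the difference and with no call. Another 63 (0.639%) were still called on the Tc17 side and are described as short of Tc1, 31 higher and 32 lower than Tc1 WT. Past Tc1 WT, on the side away from Tc17, lay 5 genes (0.0507%), and 19 (0.193%) had intervals too wide to place. The contrasts share the Tc1 WT samples, so these counts are a description. With Tc1 STAT3-/- cells in place of Tc1 WT in choosing the genes that separate the fates, 253 lay within 2-fold, 59 were short and 16 past. The count of short genes was 47 and 41 without Tc1 WT sample 1 or 2, and 40 and 32 without Tc17 STAT3-/- sample 1 or 2.

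On a scale where 0 is the Tc17 WT mean and 100 the Tc1 WT mean, the median position of the 274 genes was 87.1, with quartiles of 62.0 and 105.6. The median was 91.8 for the 148 genes higher in Tc17 WT and 80.7 for the 126 genes higher in Tc1 WT. Some of the former, such as Il17f and Il17a, lay under the level of 5 in both compared groups. Array signals understate differences there, so their position and their place within 2-fold are less certain. Such genes were not taken out of the medians. Of all 274, 142 lay between 50 and 100 and 84 beyond 100. At the other end 41 lay between 0 and 50, and 7 below 0, beyond the Tc17 WT level.

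**Figure D2:**
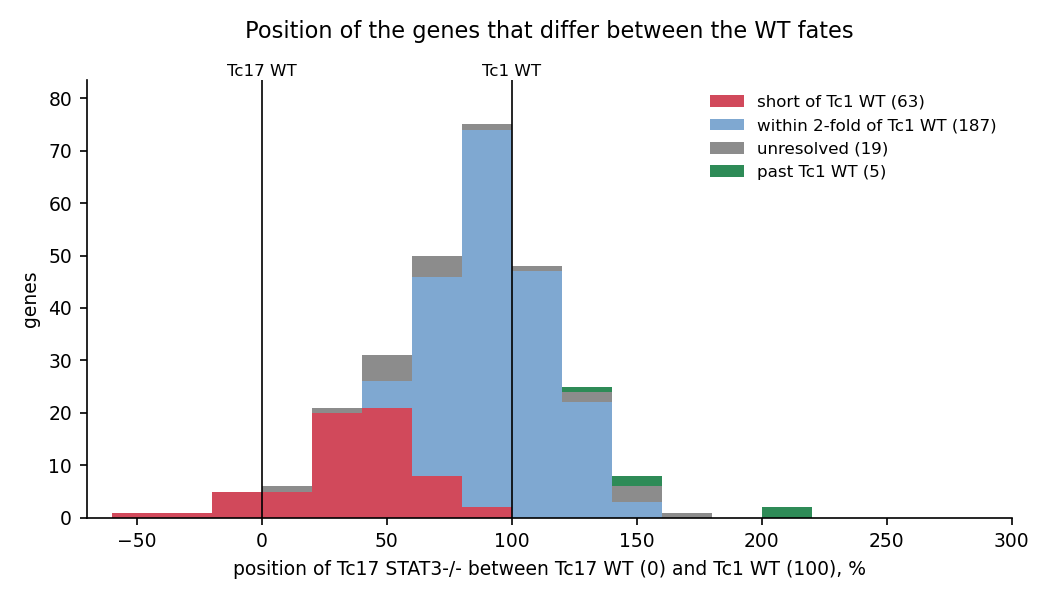
Histogram of the 274 genes that differ between Tc17 WT and Tc1 WT, by the position of Tc17 STAT3-/- cells between the Tc17 WT mean (0) and the Tc1 WT mean (100), stacked by class. The median is 87.1 and the quartiles are 62.0 and 105.6. The 63 short genes include genes far to the left, such as Foxp3 at -49.6, and others nearer to 100, such as Il24 at 85.7.

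Among the type 17 genes, the defining cytokines were not called against Tc1 WT. Il17f, a cytokine of type 17 cells, read 4.77, 4.33 and 4.59 on Tc1 WT arrays and 4.80, 5.24 and 4.85 on Tc17 STAT3-/- arrays, where Tc17 WT averaged 9.35. The compared groups came close without touching, and the difference of 0.31 ± 0.26 was not called (adjusted p = 0.817, 95% interval -0.27 to 0.90). Il17a, its paralog, read 4.13, 4.11 and 4.27 against 4.63, 4.55 and 4.42, a difference of 0.40 ± 0.22 (adjusted p = 0.649, interval -0.11 to 0.90), with a Tc17 WT mean of 8.33. All Il17a arrays of Tc17 STAT3-/- lay above those of Tc1 WT, and with technical arrays left out the difference of 0.47 was called (adjusted p = 0.0180). These values lie under the level of 5 used as the filter, where array signals understate differences. Il21, a cytokine that acts back on type 17 cells through STAT3, was at 3.64 in Tc1 WT and 3.72 in Tc17 STAT3-/- cells, and Maf, which encodes the factor c-MAF, at 3.83 and 3.98, with overlapping arrays.

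Other large Tc17 genes within 2-fold of Tc1 WT were Cysltr1, a leukotriene receptor, at 8.47 in Tc17 WT, 4.73 in Tc17 STAT3-/- and 4.31 in Tc1 WT. Ecm1, an extracellular matrix protein, followed the same order at 8.37, 5.18 and 4.71. Tgm2, a transglutaminase, was at 9.72, 6.56 and 6.34. Slc4a11, a membrane transporter, was at 7.82, 4.83 and 4.94, and Anxa3, an annexin, at 6.64, 3.56 and 3.93. Cysltr1, Slc4a11 and Anxa3 lay under the level of 5 in both compared groups. Itih5, a hyaluronan-binding protein, ran the other way, at 5.78 in Tc17 WT, 8.51 in Tc17 STAT3-/- and 8.32 in Tc1 WT. Each of these 6 genes was uncalled against Tc1 WT.

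A few type 17 genes did stay above Tc1 WT. Of 14 tested members of a list of type 17 cytokines, receptors and regulators, 3 were higher and 0 lower than in Tc1 WT. Over all tested genes 1.31% were higher and 0.953% lower. The median difference was 0.11 beside 0.00 over all tested genes. In Tc17 WT 13 of the 14 were higher than in Tc1 WT (7.01% over all tested genes), with a median over the list of 1.00. Ahr, the aryl hydrocarbon receptor, read 5.02, 4.89 and 4.99 on Tc1 WT arrays and 6.25, 6.28 and 6.67 on Tc17 STAT3-/- arrays, higher by 1.39 ± 0.17 (adjusted p = 0.00258), short of its Tc17 WT mean of 7.23. Il24, a cytokine of the IL-10 family, was higher by 0.69 ± 0.11 (adjusted p = 0.0136), with means of 4.27 in Tc1 WT, 4.97 in Tc17 STAT3-/- and 9.13 in Tc17 WT cells. The third member, Ikzf2, encodes the transcription factor Helios and is not a gene that separates the WT fates. Among 16 tested IL-6 and STAT3 pathway genes, 1 was higher and 2 lower. Lif, a cytokine of the IL-6 family, was higher by 0.96 ± 0.16 (adjusted p = 0.0133), Stat3 was lower, and Fosl2, an AP-1 factor, lay below both WT groups at 7.82, against 8.31 in Tc1 WT and 9.22 in Tc17 WT (adjusted p = 0.0270 against Tc1 WT). The difference ranged over the settings from 0.55 to 0.84 for Il24, from 0.71 to 1.22 for Lif and from -0.57 to -0.47 for Fosl2. Leaving out 1 of the compared samples ended the call of Il24 (Tc1 WT sample 1 or 2, Tc17 STAT3-/- sample 2, adjusted p up to 0.150), of Lif (Tc1 WT sample 2, either Tc17 STAT3-/- sample, up to 0.111) and of Fosl2 (any of the 4, up to 0.225).

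Several effector genes of Tc1 cells were uncalled against Tc1 WT, while others, described further on, were lower. Gzmb, which encodes the cytotoxic protease granzyme B, read 12.14, 12.14 and 12.15 on Tc1 WT arrays and 11.95, 11.92 and 11.83 on Tc17 STAT3-/- arrays. All 3 values lay below those of Tc1 WT, but the difference was 0.23 on the log2 scale and not called (adjusted p = 0.428). Tc17 WT averaged 10.98. Fasl, a death ligand of killer cells, had means of 7.37 in Tc1 WT, 7.53 in Tc17 STAT3-/- and 5.60 in Tc17 WT, Ccl5, a chemokine, 7.75, 8.03 and 5.44, and Nkg7, a granule protein, 10.42, 10.23 and 9.23. The transcription factor genes Prdm1 (Blimp-1), at 8.18, 8.12 and 6.65, and Tbx21 (T-bet), at 7.16, 6.80 and 6.17, were also uncalled against Tc1 WT. For Tbx21 every Tc17 STAT3-/- array, 6.83, 6.70 and 6.84, lay below every Tc1 WT array, 7.19, 6.99 and 7.25, with a difference of -0.36 ± 0.10 (adjusted p = 0.171). Arrays of the compared groups did not overlap for 1208 genes higher (12.2%) and 989 lower (10%), so this separation is common.

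No gene of the interferon-gamma induced list was called against Tc1 WT. Of 18 tested, 0 were called against Tc1 WT by limma (1 higher and 3 lower at an unadjusted p under 0.05; 0 to 1 higher and 0 to 2 lower over the settings tried), with a median difference of 0.03, and the 95% interval lay inside 2-fold for 15. In Tc17 WT 12 of the same 18 were lower than in Tc1 WT and 1 higher, with a median of -0.65. The shares over all tested genes were 18% lower and 7.01% higher, with a median of -0.10. The immunoproteasome gene Psmb9 averaged 8.27 in Tc1 WT, 8.33 in Tc17 STAT3-/- and 7.55 in Tc17 WT, and the antigen transport gene Tap1 9.74, 9.74 and 9.06. The 6 tested guanylate-binding protein genes had the lowest differences of the list, from -1.31 for Gbp7 to -0.04 for Gbp9, with none called. Gbp7 averaged 9.34, 8.03 and 6.33, a difference of -1.31 ± 0.29 from Tc1 WT that was not called (adjusted p = 0.0634, interval -1.97 to -0.64).

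Proliferation genes did not separate the compared groups. Of 23 tested DNA replication genes 0 were called against Tc1 WT by limma (0 higher and 3 lower at an unadjusted p under 0.05, and at most 1 called under any setting tried), and of 19 mitosis genes 0 (0 higher and 1 lower, and 0 under every setting). The median differences were -0.08 and -0.10, and all intervals of both lists lay inside 2-fold. Most differences were nonetheless below zero, 19 of 23 and 17 of 19. In Tc17 WT 20 of the 23 and 15 of the 19 were lower than in Tc1 WT, with medians of -0.51 and -0.46. Over all tested genes 18% were lower in Tc17 WT, with a median of -0.10. Mcm5, a helicase subunit that opens replication origins, averaged 10.18 in Tc1 WT, 10.11 in Tc17 STAT3-/- and 9.44 in Tc17 WT. Cholesterol synthesis genes followed the same pattern, with 0 of 16 called against Tc1 WT (0 at an unadjusted p under 0.05) and 8 of 16 lower in Tc17 WT. No glycolysis and hypoxia gene was called either, 0 of 18 (0 at an unadjusted p under 0.05). The BCL2 family and death receptor list had 0 of 12 called (0 higher and 1 lower at an unadjusted p under 0.05, and at most 1 called under any setting).

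The TGF-beta response genes short of Tc1 WT were Itgae, Ldlrad4, Pmepa1 and Foxp3. Of 18 tested, 6 were higher than in Tc1 WT and 0 lower, with a median difference of 0.27, and the count was 4 to 9 over the alternative settings. Over all tested genes 1.31% were called higher and 0.953% lower. Itgae read 3.43, 4.12 and 3.69 on Tc1 WT arrays and 7.50, 7.55 and 8.31 on Tc17 STAT3-/- arrays. It was higher by 4.05 ± 0.20 (adjusted p = 3.47e-05), from a Tc1 WT level near the array medians, where array signals understate differences, and the Tc17 WT mean of 7.72 matched the Tc17 STAT3-/- mean of 7.71. Ldlrad4, an inhibitor of TGF-beta signalling that TGF-beta induces, read 4.31, 4.48 and 4.09 against 6.38, 6.18 and 7.44, higher by 2.30 ± 0.17 (adjusted p = 0.000188). Pmepa1, another such inhibitor, was higher by 1.44 ± 0.11 (adjusted p = 0.000231). Neither was called between the Tc17 genotypes (adjusted p = 0.628 and 0.0733). Skil, a SMAD corepressor, was higher by 0.91 ± 0.15 and Cd101, a surface inhibitory protein of tissue-resident CD8 T cells, by 0.96 ± 0.14. These genes were not in the short class. Skil was not called between the WT groups, and Cd101 differed there by 0.86, under 2-fold.

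Foxp3, the transcription factor of regulatory T cells, which TGF-beta induces, had a mean beyond that of Tc17 WT. It read 5.11, 5.28 and 5.41 on Tc1 WT arrays and 8.11, 7.90 and 8.89 on Tc17 STAT3-/- arrays, higher by 3.03 ± 0.22 (8.15-fold, adjusted p = 0.000144), while Tc17 WT averaged 7.25. The Tc17 WT arrays read 6.87, 6.72 and 8.53, the last on the technical array that stood apart from all others. That value lay above both biological Tc17 STAT3-/- arrays, so the arrays of the Tc17 genotypes overlapped. Of the 63 short genes Foxp3 was the only one called as moved further from Tc1 WT than Tc17 WT was (1.00 above Tc17 WT, adjusted p = 0.0108). Another 45 were called as moved toward Tc1 WT and 17 were not called between the Tc17 genotypes. CD4 T cell markers were measured beside it. Of 3 tested, Izumo1r, which encodes folate receptor 4 of regulatory and other CD4 T cells, was higher by 1.08 ± 0.12 (adjusted p = 0.00203), whereas Cd4 averaged 5.08 and 5.10 and Zbtb7b, the factor that fixes the CD4 lineage, 6.28 and 6.20. The summed level of the list was 7.26 to 7.36 in Tc1 WT and 7.63 to 7.70 in Tc17 STAT3-/- samples, and its part in the Foxp3 difference was not tested.

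Cpd, which encodes carboxypeptidase D, was the next largest short gene after Itgae. It read 5.84, 5.76 and 5.28 on Tc1 WT arrays and 8.84, 8.94 and 9.27 on Tc17 STAT3-/- arrays, higher by 3.29 ± 0.16 (adjusted p = 3.47e-05), against a Tc17 WT mean of 9.81. Cd200, an inhibitory ligand, was higher by 1.65 ± 0.18 (adjusted p = 0.00144) and matched Tc17 WT at 7.20 and 7.43. Rragd, a Rag GTPase of the mTORC1 pathway, was higher by 1.80 ± 0.26 (adjusted p = 0.00647), a call lost without Tc1 WT sample 2 or Tc17 STAT3-/- sample 2 (adjusted p up to 0.0618).

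The interferon-gamma axis itself was split between its cytokine, receptor and inputs. Ifng read 7.91, 8.06 and 8.12 on Tc1 WT arrays and 7.08, 7.29 and 6.81 on Tc17 STAT3-/- arrays, with no overlap. It was lower by 0.93 ± 0.11 on the log2 scale (1.91-fold, adjusted p = 0.00201), at position 71.5 of the way from Tc17 WT (4.72) to Tc1 WT (8.0). Ifngr2, the signalling chain of the interferon-gamma receptor, read 5.15, 5.74 and 5.02 against 7.34, 7.06 and 7.34, higher by 2.0 ± 0.10 (adjusted p = 3.47e-05), short of the Tc17 WT mean of 8.48. Ifngr1, the binding chain, was at 10.36 and 10.34. Type 1 helper T cells are known for a low level of Ifngr2.

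The receptor chains that feed Ifng differed from each other. Il18r1, the binding chain of the IL-18 receptor, read 7.92, 7.78 and 7.39 on Tc1 WT arrays and 5.49, 5.54 and 5.12 on Tc17 STAT3-/- arrays, lower by 2.34 ± 0.14 (5.07-fold, adjusted p = 5.37e-05) and level with Tc17 WT at 5.50. Its partner Il18rap lay between the WT groups, at 6.75 in Tc1 WT, 5.81 in Tc17 STAT3-/- and 4.79 in Tc17 WT, and was not called against Tc1 WT (difference -0.94, adjusted p = 0.0642). Il12rb2, the signalling chain of the IL-12 receptor, read 10.56, 10.67 and 10.51 against 10.20, 10.29 and 9.97, a difference of -0.41 ± 0.11 that was not called (adjusted p = 0.129), but was in 6 of 24 settings, such as without technical arrays (adjusted p = 0.0438). Stat4, which carries its signal, was at 10.26 and 10.16.

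The promoters of Ifng, Il18r1 and Foxp3 are shown because these 3 genes fell short of Tc1 WT, 1 in part, 1 fully and 1 beyond Tc17 WT, and because their windows hold the STAT palindrome. The windows are the 250 bases upstream of a RefSeq transcript start in GRCm38.p6, on the plus strand at chr10:118440796-118441045, chr1:40465756-40466005 and chrX:7580233-7580482. Capitals mark matches of TTCNNNGAA, which reads the same on both strands.
Ifng: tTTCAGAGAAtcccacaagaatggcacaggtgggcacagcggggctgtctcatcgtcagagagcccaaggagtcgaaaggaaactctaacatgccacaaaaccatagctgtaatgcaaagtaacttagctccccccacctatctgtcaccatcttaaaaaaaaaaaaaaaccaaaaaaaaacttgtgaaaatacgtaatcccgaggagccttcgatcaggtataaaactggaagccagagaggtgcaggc
Il18r1: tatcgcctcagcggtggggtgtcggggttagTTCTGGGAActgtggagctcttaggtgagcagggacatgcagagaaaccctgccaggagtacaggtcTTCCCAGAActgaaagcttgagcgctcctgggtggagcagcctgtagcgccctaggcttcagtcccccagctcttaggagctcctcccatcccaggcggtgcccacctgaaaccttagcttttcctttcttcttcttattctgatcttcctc
Foxp3: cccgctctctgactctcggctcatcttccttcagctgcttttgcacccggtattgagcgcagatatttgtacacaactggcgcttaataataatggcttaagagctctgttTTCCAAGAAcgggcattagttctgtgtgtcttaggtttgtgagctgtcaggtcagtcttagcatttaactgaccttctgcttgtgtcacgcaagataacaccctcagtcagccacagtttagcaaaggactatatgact
The Il18r1 window belongs to 1 of 3 listed starts and the Foxp3 window to 1 of 2, and the other windows held no match. Of the 63 short genes, 23 of the higher and 28 of the lower ones had a promoter in the RefSeq table, and 8 genes had a match: Foxp3, Ifng, Il18r1, Lta, Lyst, Muc13, Plscr1 and Themis2. A match was found in 4 of 26 windows of the short genes higher than Tc1 WT (15.4%) and in 4 of 40 of the lower ones (10%), beside 7.02% of all 32851 promoters and 5.98% of those of tested genes. Other motifs were counted in the same windows. The AP-1 site TGANTCA was in 15.4% and 7.5%, beside 4.21% for tested genes. The SMAD element CAGAC was in 30.8% and 32.5%, beside 40.3%, and the T-box half-site GGTGTGA in 0% and 2.5%, beside 2.72%. A match is a description of the letters and shows no binding.

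Further genes short of Tc1 WT on the low side included surface receptors and Eomes. Havcr2, which encodes the inhibitory receptor TIM-3 of type 1 T cells, read 7.79, 7.59 and 8.34 on Tc1 WT arrays and 6.16, 6.15 and 6.20 on Tc17 STAT3-/- arrays. It was lower by 1.71 ± 0.10 (adjusted p = 5.37e-05) and lay about midway to the Tc17 WT mean of 4.56, at position 48.4. Ly6c2, a surface protein of effector and memory CD8 cells, read 9.36, 9.16 and 9.32 against 7.49, 7.43 and 6.93, lower by 1.96 ± 0.28 (adjusted p = 0.00658, 0.0714 without Tc17 STAT3-/- sample 2), with Tc17 WT at 5.10. Plxnc1, a semaphorin receptor, was lower by 1.74 ± 0.18 (adjusted p = 0.00116), with the technical array at 4.00 below the biological arrays at 5.33 and 5.35. Eomes, a T-box factor of effector and memory CD8 cells, read 6.32, 6.22 and 6.25 against 5.47, 5.23 and 5.30, lower by 0.91 ± 0.16 (adjusted p = 0.0216), a call lost when any 1 of the 4 compared samples was left out (adjusted p up to 0.204).

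Granule genes diverged within their list. Of 17 tested granzyme, perforin and granule protein genes, 1 was higher and 3 lower than in Tc1 WT, with a median of -0.11. The shares over all tested genes were 1.31% higher and 0.953% lower. Prf1, which encodes the pore-forming protein perforin, read 9.50, 9.49 and 9.98 on Tc1 WT arrays and 8.11, 8.03 and 8.17 on Tc17 STAT3-/- arrays. It was lower by 1.51 ± 0.13 (2.85-fold, adjusted p = 0.000328), and it was also below Tc17 WT, at 8.72, by 0.61 (adjusted p = 0.00857). Perforin opens the target cell to granzymes. Serpinb6b, an intracellular serpin, read 8.91, 8.96 and 8.33 against 7.13, 7.12 and 6.28, lower by 1.86 ± 0.17 (adjusted p = 0.000578). Serpinb9, which inhibits granzyme B, was lower by 1.59 ± 0.18 (adjusted p = 0.00196), at 5.18 near the Tc17 WT mean of 4.65. Gzma, which encodes granzyme A, was higher by 0.88 ± 0.15 (adjusted p = 0.0189), on the Tc17 WT side, a call lost without any 1 of the 4 compared samples (adjusted p up to 0.155).

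The genes past Tc1 WT were few. Ermn, a cytoskeletal protein, averaged 6.25 in Tc17 WT, 5.03 in Tc1 WT and 3.69 in Tc17 STAT3-/- cells, lower than Tc1 WT by 1.33 ± 0.20 (adjusted p = 0.00852). Emp1, a membrane protein, read 6.74, 6.54 and 7.21 on Tc1 WT arrays and 5.58, 5.38 and 5.41 on Tc17 STAT3-/- arrays, lower by 1.32 ± 0.12 (adjusted p = 0.000744), and by 0.65 when its probe sets were averaged. Alpk2, an atypical kinase, was lower by 0.86 ± 0.15, with a difference of -0.53 that was uncalled when its probe sets were averaged (adjusted p = 0.0697), and Etv6, an ETS family repressor, by 0.61 ± 0.10. Mndal, an interferon-inducible gene, was the 1 gene past Tc1 WT on the high side, by 0.73 ± 0.15 (adjusted p = 0.0454). Its call was lost in 9 of 24 settings, among them no dim filter, median scaling over tested genes and quantile normalization. Leaving out any 1 of the 4 compared samples ended the calls of Alpk2 and Mndal. Etv6 also lost its call without Tc17 STAT3-/- sample 1. All but Emp1 lost their call without Tc1 WT sample 1 or Tc17 STAT3-/- sample 2, with adjusted p up to 0.0678 for Ermn, 0.156 for Alpk2, 0.133 for Etv6 and 0.371 for Mndal. The count was 1 without Tc17 STAT3-/- sample 2, 2 without sample 1, 3 without Tc1 WT sample 1 and 12 without Tc17 WT sample 1.

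With no minimum fold between the WT fates, 31 genes lay past Tc1 WT, 17 higher and 14 lower. Satb1, a chromatin organizer of naive and developing T cells, read 8.84, 8.82 and 8.68 on Tc1 WT arrays and 7.80, 7.96 and 7.70 on Tc17 STAT3-/- arrays, lower by 0.97 ± 0.09 (adjusted p = 0.000761), where Tc17 WT was higher at 9.51. Cpm, which encodes carboxypeptidase M, read 6.31, 6.43 and 6.40 against 4.44, 4.46 and 4.40, lower by 1.93 ± 0.14 (adjusted p = 0.000193), where Tc17 WT averaged 6.95 and Tc1 STAT3-/- 5.42. Clnk, an adaptor of immune receptor signalling, read 4.57, 4.50 and 5.05 against 6.83, 6.77 and 7.57, higher by 2.33 ± 0.13 (adjusted p = 4.85e-05), where Tc17 WT was lowest at 4.05. Klf3, a zinc finger repressor, was higher by 1.22 ± 0.16 (adjusted p = 0.00402) with Tc17 WT at 4.18, a call lost without Tc17 STAT3-/- sample 2 (adjusted p = 0.0516).

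A part of the called genes lay apart from both WT fates. Of the 223, 70 (31.4%, or 0.710% of tested genes) were called in the same direction against both Tc1 WT and Tc17 WT, which did not differ from each other by the test. Of these 45 were higher and 25 lower, and 22 were at least 2-fold from both. A further 56 lay on the Tc17 side with no called difference between the Tc17 genotypes, 46 between the WT groups, 14 beyond Tc17 WT, and 6 were called against Tc1 WT only. The count of 70 fell to 36 and 31 without Tc17 STAT3-/- sample 1 or 2, was 50 and 48 without Tc1 WT sample 1 or 2, and was 116 with all technical arrays left out.

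Chemokines and their receptors were among the genes apart from both fates. Xcl1, a chemokine that attracts cross-presenting dendritic cells, read 4.24, 3.93 and 3.86 on Tc1 WT arrays and 5.90, 5.85 and 8.26 on Tc17 STAT3-/- arrays, with Tc17 WT at 3.79. It was higher by 2.41 ± 0.30 (adjusted p = 0.00294). The technical array was far above the other 2, and the difference ranged from 1.79 with technical arrays left out to 2.98 over the settings tried. Ccl3, another chemokine of activated CD8 cells, read 5.67, 5.81 and 6.27 against 7.04, 7.07 and 7.74, higher by 1.37 ± 0.21 (adjusted p = 0.0102), a call lost without Tc1 WT sample 1 or Tc17 STAT3-/- sample 2 (adjusted p up to 0.109). Cxcr6, the receptor of CXCL16 on effector and tissue-resident T cells, read 7.39, 7.39 and 6.80 against 5.27, 5.35 and 5.48, lower by 1.90 ± 0.14 (adjusted p = 0.000193), with Tc17 WT at 6.98. Ccr8, a receptor of regulatory and type 2 cells, lay beyond Tc17 WT (4.71) at 5.38, higher than Tc1 WT by 1.27 ± 0.15 (adjusted p = 0.00217).

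**Figure D3:**
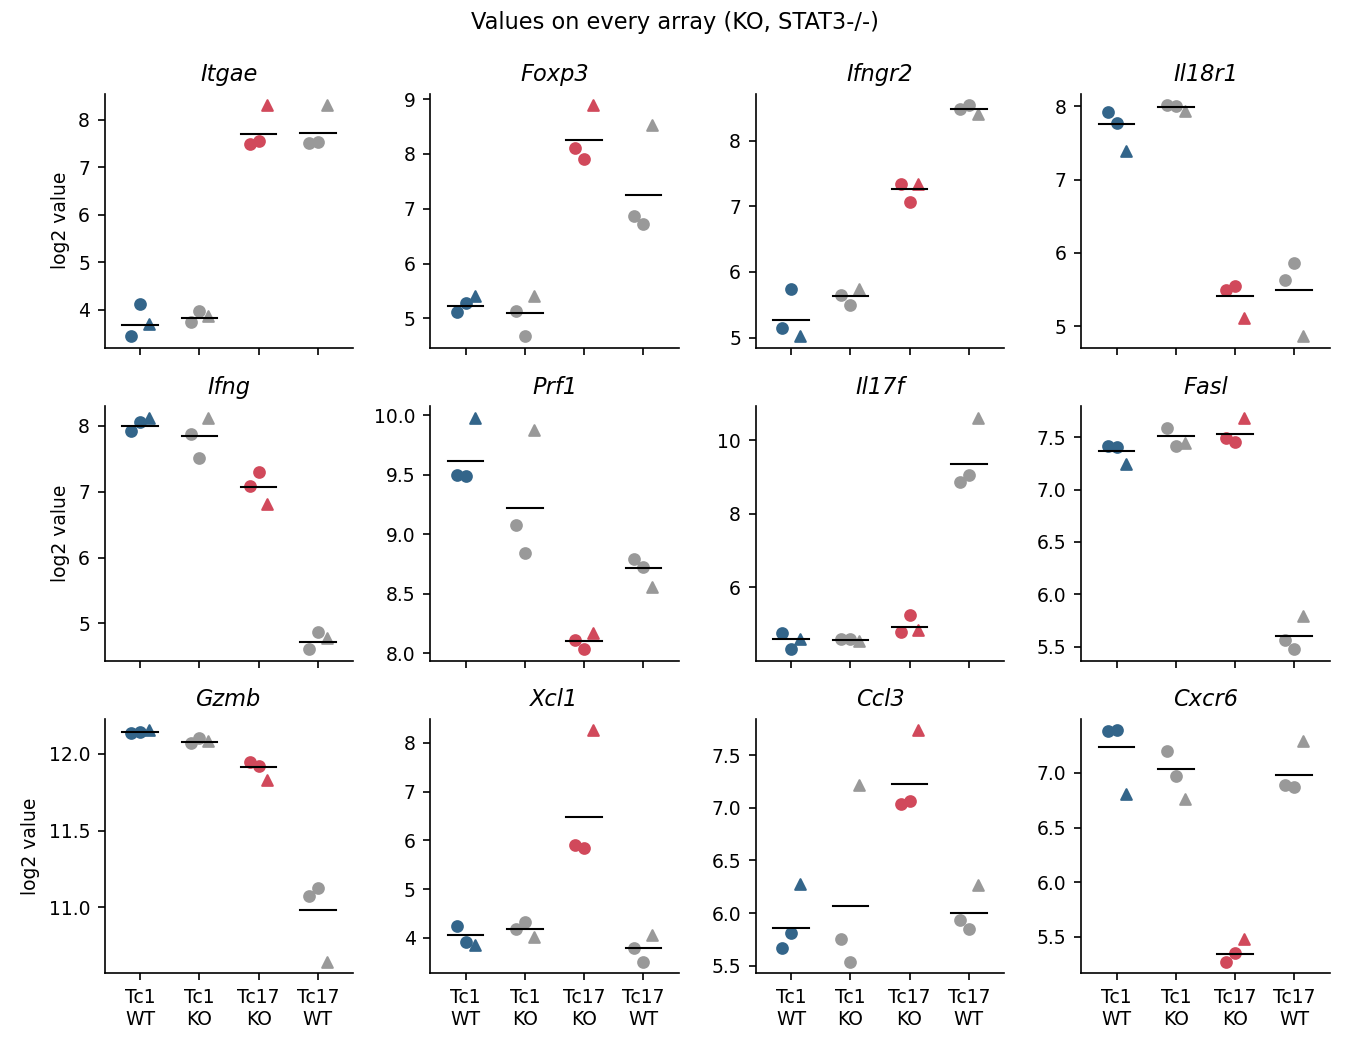
Log2 values of 12 genes on every array of the 4 groups (KO, STAT3-/-), with circles for biological arrays, triangles for technical arrays and bars for group means over 2 samples; each panel has its own axis. Itgae and Il18r1 sit at the Tc17 WT level in Tc17 STAT3-/- cells, Il17f, Fasl and Gzmb near the Tc1 WT level, and Xcl1, Ccl3 and Cxcr6 at a level of neither WT group.

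Several other genes apart from both fates encode surface or nuclear regulators. Ikzf2 read 7.79, 7.76 and 7.56 on Tc1 WT arrays and 9.02, 9.10 and 9.14 on Tc17 STAT3-/- arrays, higher by 1.34 ± 0.14 (adjusted p = 0.00144), with Tc17 WT at 7.64 and Tc1 STAT3-/- at 8.20. Tmem273, a membrane protein, read 3.71, 3.41 and 3.89 against 6.16, 5.90 and 6.79, higher by 2.58 ± 0.15 (adjusted p = 5.46e-05), and Tc17 WT averaged 3.76. Car2, carbonic anhydrase 2, was higher by 2.40 ± 0.15 (adjusted p = 5.69e-05), and Sema6d, a semaphorin, by 1.90 ± 0.13 (adjusted p = 0.000106). Cd96, an inhibitory receptor, was higher by 0.86 ± 0.10 (adjusted p = 0.00244), and Myo1e, a myosin, by 1.53 ± 0.17 (adjusted p = 0.00187). Mctp2, a calcium-binding membrane protein, was lower by 1.65 ± 0.16 (adjusted p = 0.00112). Cd7, a costimulatory receptor, was higher by 1.80 ± 0.31 (adjusted p = 0.0193), and by 1.06 with technical arrays left out. Its Tc1 WT arrays read 6.96, 7.16 and 5.21, and its call was lost without Tc1 WT sample 2 or Tc17 STAT3-/- sample 2 (adjusted p up to 0.170).

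Markers of other cell types moved in places. Cd79b, a B cell receptor subunit, was higher by 0.84 ± 0.11 (adjusted p = 0.00459), a call lost without Tc17 STAT3-/- sample 1. The other tested B cell markers, Ighm and Ebf1, were not called and lay within 2-fold of Tc1 WT. Over the arrays the B cell list summed to 10.60 to 10.61 in Tc1 WT, 10.96 to 11.22 in Tc17 STAT3-/- and 9.50 to 9.57 in Tc17 WT. Cd79b averaged 6.71 in Tc1 WT and 7.56 in Tc17 STAT3-/- cells, far below that sum. Cd79a, Ms4a1, Pax5 and Cd22 averaged at most 4.13 in both compared groups. The part of these markers in any other difference was not tested. Cd68, a lysosomal protein of macrophages, was lower by 1.01 ± 0.11 (adjusted p = 0.00187), and the myeloid list summed to 8.21 to 8.42 and 7.70 to 7.76, while the other 9 myeloid markers were too dim to be tested. None of the 2 NK and 5 dendritic cell markers with a probe set reached the level for testing.

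Of the called genes, 5 were also called between the Tc1 genotypes. The fit called 6 genes (0.0608%) between Tc1 STAT3-/- and Tc1 WT cells: Stat3, Ctse, Mid1, Abhd17b, Nt5e and Bckdhb. Ctse, the protease cathepsin E, read 10, 10.02 and 9.93 on Tc1 WT arrays and 6.20, 6.20 and 6.30 on Tc17 STAT3-/- arrays, lower by 3.76 ± 0.10 (13.6-fold, adjusted p = 5.46e-07), and averaged 6.61 in Tc1 STAT3-/- and 9.45 in Tc17 WT cells. Mid1, a ubiquitin ligase, read 6.22, 6.01 and 6.02 against 9.57, 9.50 and 8.53, higher by 3.17 ± 0.21 (adjusted p = 9.65e-05) and by 1.66 when its probe sets were averaged, and Tc1 STAT3-/- averaged 9.48. Abhd17b, a depalmitoylating enzyme, was lower by 2.74 ± 0.16 (adjusted p = 5.37e-05), and Bckdhb, an enzyme of branched-chain amino acid breakdown, higher by 1.13 ± 0.13 (adjusted p = 0.00258). Nt5e, which encodes CD73, was level at 6.63 in both compared groups, while Tc1 STAT3-/- stood at 5.33.

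Set against Tc1 STAT3-/- cells, which share the genotype, Tc17 STAT3-/- cells differed in 204 genes (2.07%). That contrast shares the Tc17 STAT3-/- samples with the main one, and values are given side by side. The difference was 3.89 for Itgae (4.05 against Tc1 WT), 3.16 for Foxp3 (3.03), 2.30 for Xcl1 (2.41) and 1.63 for Ifngr2 (2.0). For lower genes it was -2.58 for Il18r1 (-2.34 against Tc1 WT), -2.03 for Havcr2 (-1.71), -1.69 for Cxcr6 (-1.90), -1.11 for Prf1 (-1.51) and -0.78 for Ifng (-0.93). Ctse, Mid1 and Abhd17b were uncalled, at -0.38, -0.19 and 0.47, and Stat3 was at 0.41. Ikzf2 stood 0.87 above Tc1 STAT3-/- (1.34 above Tc1 WT).

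Counts in the other lists were small, beside 1.31% called higher and 0.953% called lower over all tested genes. Among 15 inhibitory receptor and exhaustion genes 4 were higher (Cd200, Cd96, Nr4a3 and Pdcd1) and 1 lower (Havcr2), with a median of 0.36. Pdcd1, which encodes PD-1, averaged 7.48 in Tc1 WT, 8.17 in Tc17 STAT3-/- and 6.92 in Tc17 WT. Of 18 naive and memory genes 1 was higher and 4 lower, with a median of 0.08. Slamf6, a receptor of the SLAM family, was lower by 0.78 ± 0.14 (adjusted p = 0.0224), and the difference was -0.28 and uncalled when its probe sets were averaged, and its call was also lost without Tc1 WT sample 1 or 2 or Tc17 STAT3-/- sample 2. Among 15 chemokine receptors and integrins 2 were higher and 1 lower, and among 11 costimulatory receptors 1 was higher and 2 lower, the latter Tnfrsf8 (CD30), lower by 1.15 ± 0.16, and Icos, by 0.59 ± 0.09.

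In 9 NK receptors and adaptors, 1 was higher, Cd244a (2B4), and 1 lower, Klrc1 (NKG2A, difference -1.08 ± 0.15). Type 1 cytokines, chemokines and ligands had 3 higher (Lta, Ccl3 and Xcl1) and 1 lower (Ifng) of 11, with a median of 0.28. IL-12, IL-18 and interferon-gamma signalling genes had 1 higher (Ifngr2) and 2 lower (Il18r1 and Gadd45g) of 13, with a median of -0.10. Of 12 type 1 and CD8 effector transcription factors, Irf8 and Ikzf3 were higher and Eomes lower, with a median of -0.14. The lists of type I interferon induced genes (0 of 12, 2 higher and 2 lower at an unadjusted p under 0.05) and common gamma chain and STAT5 genes (0 of 10, 3 higher and 0 lower) had no call by limma. The lists share some genes. Irf8 lost its call in 11 of 24 settings and Ikzf3 in 13, among them no dim filter and leaving out either Tc1 STAT3-/- sample. Leaving out 1 of the compared samples ended, in 1 or more cases, the calls of Lta, Nr4a3, Cd244a, Klrc1, Gadd45g, Irf8, Ikzf3, Icos and Tnfrsf8, with adjusted p up to 0.0816, 0.217, 0.245, 0.0659, 0.305, 0.367, 0.416, 0.104 and 0.0567 over all settings.

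**Figure D4:**
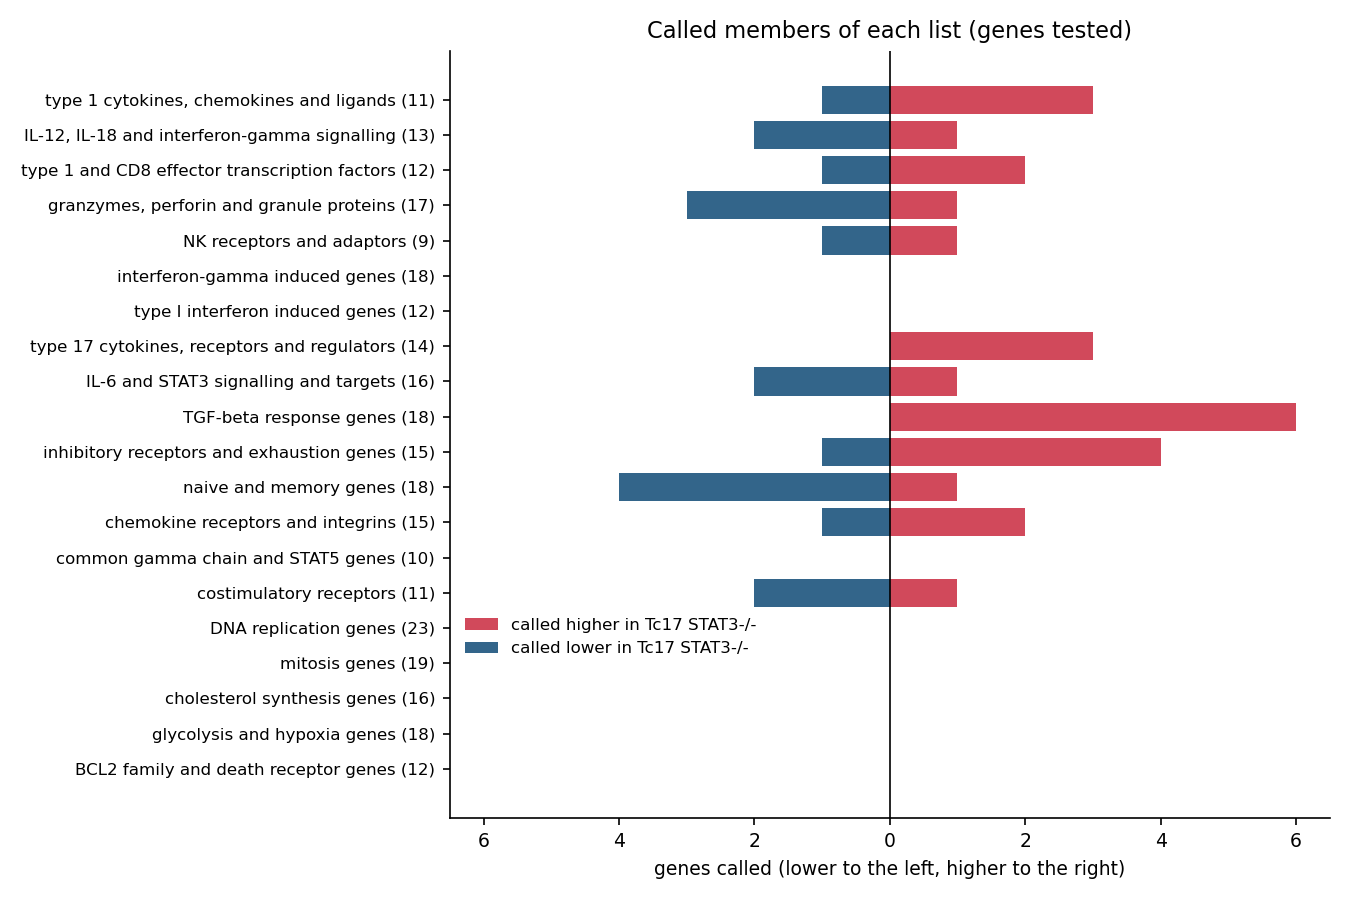
Number of members of each gene list called higher (right) or lower (left) in Tc17 STAT3-/- than in Tc1 WT cells, with the number tested in brackets. TGF-beta response genes have 6 of 18 called, all higher, inhibitory receptors 5 of 15 in both directions, and the interferon-gamma induced, DNA replication and mitosis lists have none.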

How the data were processed

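Gene expression of mouse CD8 T cells was measured on Affymetrix arrays, 3 in each of 4 groups. The authors deposited log2 values per probe set, made with RMA and Partek per the submitters' processing notes. Their versions, and which step each did, are not given here. RMA narrows differences near background. Of 41345 probe sets, the 23521 with exactly 1 gene symbol were used, the brightest per gene, giving 22180 genes. Each technical array was merged with biological array 2 by its number, although the labels do not say which sample it repeats. A linear model of the 4 group means (limma 3.58.1, R 4.3.3, data.table version 1.17.8) used all 8 samples, with 4 residual and 4.87 prior degrees of freedom, and two-sided p-values were adjusted by Benjamini-Hochberg. The procedure was tested on simulated data. The labels do not name animals or cultures, so the p-values reflect the spread among these samples alone, which may be technical, and the number of samples limits the precision. Plots used matplotlib 3.10.9 and pandas 2.3.3 (Python 3.11.15).

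Named genes were Stat3, the 12 largest called differences in each direction, up to 4 called members per list, up to 10 genes per class, genes called in Tc1 by genotype, and Ifng, Tbx21, Eomes, Gzmb, Prf1, Il12rb2, Il17a, Il17f, Itgae and Foxp3. An item of the rule is not reported here. Other genes named from the lists, promoters or markers were chosen after their values were seen. The comparison, lists and classes were chosen with earlier results of these data known.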

Additional observations from a re-analysis of the deposited data

Results flagged for a closer look

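Probe sets without a single gene symbol stood outside the comparisons. Of 4636 of them bright enough to be tested, 10 were called between Tc17 STAT3-/- and Tc1 WT cells in a fit of their own (limma, adjusted p under 0.05), 8 higher and 2 lower, and all 10 had no symbol in the annotation used. They are singled out because they are signal in data that the report does not use.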

How the results depend on the processing

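None of the 62 named genes called changed direction, and 36 of them kept the call in every setting run for them (24, or 23 for Car2, Sema6d and Ccr8). Of the named genes not called, Nt5e, Maf, Tgm2 and Slc4a11 changed sign in some settings. The count of called genes, 223, was 373 with technical arrays left out, 319 with only the 2 compared groups in the fit and 89 to 269 when 1 sample was left out. Short genes, 63, numbered 116 with no minimum fold between the WT fates and 32 to 70 without 1 sample. Genes within 2-fold, 187, numbered 2297 with no minimum fold and 177 to 239 without 1 sample. Genes apart from both WT groups, 70, numbered 116 with technical arrays left out, 117 with them as samples and array kind as a block, and 31 to 91 without 1 sample. Genes past Tc1 WT, 5, numbered 11 with technical arrays left out, averaged with replicate 1 or under cyclic loess, 10 with a dim filter of 6, 9 with technical arrays as samples, median scaling over tested genes or no Tc17 WT technical array, 8 with limma-trend or no Tc1 WT technical array, 31 with no minimum fold, 16 with Tc1 STAT3-/- in the WT contrast (chosen after the data were seen, as were the settings without 1 technical array), and 1 to 12 without 1 sample. Where the cause is not in the setting itself, the cause was not tested. A fit left with 1 sample in a group assumes that it varies like the others. The labels do not say that a replicate number marks a shared culture. Deviations of same-numbered samples correlated by 0.11 between the compared groups and by 0.10 to 0.46 over all pairs of groups. The highest was between the Tc1 genotypes. With the biological arrays alone they correlated by 0.08 between the compared groups and by 0.00 to 0.17 over all pairs. Differences of the technical array from the biological arrays correlated by 0.14 and by -0.01 to 0.52, the highest again between the Tc1 genotypes. Each group has only 2 numbers, so pairing was not assumed. With the replicate block the counts were 320 called, 76 short, 9 past, 181 within 2-fold and 101 apart, and Cysltr1 and Ecm1 were called higher. Dim genes bound what can be seen: 12318 genes were not tested.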
